A study of Mus musculus with 10 samples.

Results

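Pleiotrophin (Ptn), midkine (Mdk), the receptor phosphatase Ptprz1 and the syndecans Sdc1, Sdc2, Sdc3 and Sdc4 were followed in mammary fibroblasts and tumor cells cultured apart and together. The 7 genes were taken by symbol from a table of 55486 genes, and all 7 were found in it. They were selected on values of these same libraries, with the loss of Ptn from co-cultured fibroblasts already known. Their levels by cell type, subset and culture are therefore given as a description without a p-value. Differences that the choice did not use, between tumor lines and between fibroblasts grown beside either line, were tested.

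The libraries came from 5 gels of collagen and basement membrane extract that were cultured for 7 days. Normal fibroblasts (NFs) had been pooled from mammary glands of female mTmG mice of 8 weeks, whose cells are red until Cre recombinase turns them green. They were sorted by CD26, the surface protein encoded by Dpp4, and CD26+ NFs were turned green with an adenovirus that carries Cre, so virus exposure and subset cannot be told apart. Gel 1 held CD26− and CD26+ NFs mixed in equal parts. Gels 2 and 3 held the tumor lines 13-MCB-17 and 10-SJK-221 alone, and gels 4 and 5 held the NF mixture with 13-MCB-17 and 10-SJK-221, respectively. Both lines came from end-stage invasive lobular carcinomas of mice in which WapCre, active in mammary epithelium, deletes floxed Cdh1. After culture the cells were sorted by color, which gave 1 library of each NF subset alone, 2 libraries of each co-cultured NF subset, 2 of tumor cells alone and 2 of co-cultured tumor cells. NFs alone came from 1 gel, so an effect of co-culture and a feature of that single gel cannot be told apart, and gel and tumor line cannot be told apart in co-cultured NFs. In sorted bulk RNA, fewer cells with a transcript and less transcript per cell cannot be told apart either.

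Pleiotrophin and midkine are small secreted growth factors that bind heparin and the sulfated sugar chains of proteoglycans. Pleiotrophin binds the chondroitin sulfate chains and the extracellular part of Ptprz1, and binding lowers the activity of this tyrosine phosphatase towards substrates such as beta-catenin. Anaplastic lymphoma kinase (Alk), low density lipoprotein receptor-related protein 1 (Lrp1), nucleolin (Ncl), integrins and the syndecans have also been described as binding partners. Syndecans are membrane proteins that carry heparan sulfate. Syndecan-1 is typical of epithelia and is known to appear in the stroma of breast carcinomas, syndecan-2 is typical of mesenchymal cells, syndecan-3 of neural tissue, and syndecan-4 is found in focal adhesions of many cell types. Proteases shed their extracellular parts with the chains and any bound growth factor.

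The genes lie on 5 chromosomes of GRCm38. Ptn (ENSMUSG00000029838) spans chromosome 6 from 36714929 to 36810220 on the minus strand, and Ptprz1 spans 22875502 to 23052916 on the plus strand of the same chromosome. Mdk spans 91929805 to 91932297 and Sdc4 spans 164424247 to 164443887 on the minus strand of chromosome 2. Sdc1 spans 8771323 to 8793715 on chromosome 12, Sdc2 spans 32920723 to 33034935 on chromosome 15 and Sdc3 spans 130792537 to 130826319 on chromosome 4, all on the plus strand. Exons of antisense genes (Gm12970 and Gm26716) cover 7.73% of the exon bases of Sdc3, and it is not given in the sources used here whether counting used the strand.

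The sequences upstream of Ptn and Sdc1 are shown because in co-cultured NFs Ptn was the member furthest below, and Sdc1 the syndecan furthest above, its level in NFs alone. RefSeq (GRCm38.p6) gave a promoter entry for 5 of the 7 genes (Ptn, Ptprz1, Sdc1, Sdc3 and Sdc4). Each printed stretch ends at the last base before the annotated GENCODE start and is written 5′ to 3′ on the strand of the gene. It lies at chr6:36810221-36810429 on the minus strand for Ptn (209 bases) and at chr12:8771146-8771322 on the plus strand for Sdc1 (177 bases). Capitals mark matches, on either strand, to the letters GGGCGG of the GC box, to those of the core promoter motif TATAA, and to those of the upstream element CCAAT.
Ptn: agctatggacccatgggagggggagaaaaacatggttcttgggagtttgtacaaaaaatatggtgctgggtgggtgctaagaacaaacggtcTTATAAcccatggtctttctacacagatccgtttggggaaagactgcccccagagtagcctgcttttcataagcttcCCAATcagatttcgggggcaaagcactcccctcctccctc
Sdc1: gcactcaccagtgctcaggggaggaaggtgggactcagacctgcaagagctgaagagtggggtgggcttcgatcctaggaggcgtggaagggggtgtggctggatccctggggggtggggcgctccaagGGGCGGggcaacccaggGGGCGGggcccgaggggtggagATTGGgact
The Ptn stretch held a TATAA match on either strand, with the overlapping copies starting 117 and 116 bases before the GENCODE start, and a CCAAT match starting 40 bases before it. GC boxes were found in the Sdc1 stretch only, starting 48 and 31 bases before its GENCODE start, together with a CCAAT match on the opposite strand 9 bases before it. For comparison, windows of the same lengths were taken from 32851 promoter entries, each beginning 250 bases before its RefSeq start. That start is at 36810179 for Ptn and 8771396 for Sdc1, downstream of the GENCODE start. The windows were the first bases of each entry, so they leave out the bases next to the RefSeq start. Windows of 209 bases held TATAA in 18.5%, CCAAT in 29.8% and GGGCGG in 26.5% of cases, and windows of 177 bases in 16.45%, 24.4% and 20.6%. The AP-1 motif TGANTCA and the E-box CACGTG had no match in either stretch (5.82% and 4.62% of windows of 209 bases, 4.84% and 3.61% of windows of 177 bases). The Sdc1 stretch had 68.4% G and C bases, which exceeded 89.7% of all windows of that length, and the Ptn stretch had 49.8%, which exceeded 41.7%. These letters are a description of the windows and show neither binding nor use of a start site.

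Levels are given in CPM, the count of a gene scaled to a common library total. Libraries held 14142334 to 18408940 counts, and the limit set by a count of 0, taken as 3 counts, was 0.163 to 0.212 CPM. Folds and log2 fold changes from model fits use TMM scaling, a correction for library composition, with factors of 0.853 to 0.916 in CD26− NFs, 0.980 to 1.04 in CD26+ NFs and 1.05 to 1.11 in tumor cells. The labels were checked with Dpp4, Epcam and Col1a1. Dpp4 had 4, 12 and 4 counts in CD26+ NFs of gels 1, 4 and 5 against 0, 0 and 1 in CD26− NFs, in the direction of the labels but close to the floor. The epithelial adhesion gene Epcam stood at 335 to 432 CPM in tumor cells and at 0 counts in gel 1, while NFs of gels 4 and 5 had 6.42 to 15.9 CPM. The floxed gene Cdh1 was counted at 239 CPM in gel 2, 269 CPM in gel 3 and 144 and 140 CPM in tumor cells of gels 4 and 5, and at 0 to 5.23 CPM in NFs. A count over the whole gene does not show whether the floxed part is missing, so it checks no label. The fibroblast collagen Col1a1 ranged from 7882 to 18556 CPM over the NF libraries, did not exceed 3.10 CPM in tumor cells alone and reached 89.1 and 28.1 CPM in those of gels 4 and 5.

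Material of the other cell type in the sorted libraries bears on every level in gels 4 and 5. The summed level of 8 epithelial markers in co-cultured NFs was 2.75% (CD26−) and 4.10% (CD26+) of that in tumor cells of the same gel in gel 4, and 2.86% and 6.52% in gel 5. In NFs alone it was 0.0178% and 0.0247% of the mean of tumor cells alone, and 5 of the 8 markers were at 0. Fibroblast markers (8 genes) in co-cultured tumor cells reached 0.578% (gel 4) and 0.301% (gel 5) of the NF mean of the same gel, and in tumor cells alone 0.0994% and 0.0536% of the mean of NFs alone. Pericyte and smooth muscle markers (4 genes) summed to 41.1 and 78.2 CPM in gel 1 and to between 133 and 279 CPM in NFs that shared a gel. Notch3 carried this difference (28.3 and 68.9 CPM in gel 1, 125 to 271 CPM in gels 4 and 5), while Rgs5 was at 9.25 and 6.11 CPM in gel 1 and 1.88 to 6.22 CPM in gels 4 and 5. Immune markers (6 genes) summed to 6.02 and 12.5 CPM in gel 1, to 33.0 to 66.0 CPM in co-cultured NFs and 50.65 to 303 CPM in tumor cells. Cd68 made up 299 CPM of the highest sum, in 13-MCB-17 cells alone, where Ptprc and Ms4a1 were at 0 and Csf1r at 1.79 CPM was lower than in the other tumor libraries. Myoepithelial (4 genes), glial and Schwann (5 genes), endothelial (5 genes) and adipocyte markers (4 genes) summed to at most 5.12, 5.97, 22.9 and 6.46 CPM in NFs.

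**Figure D1:**
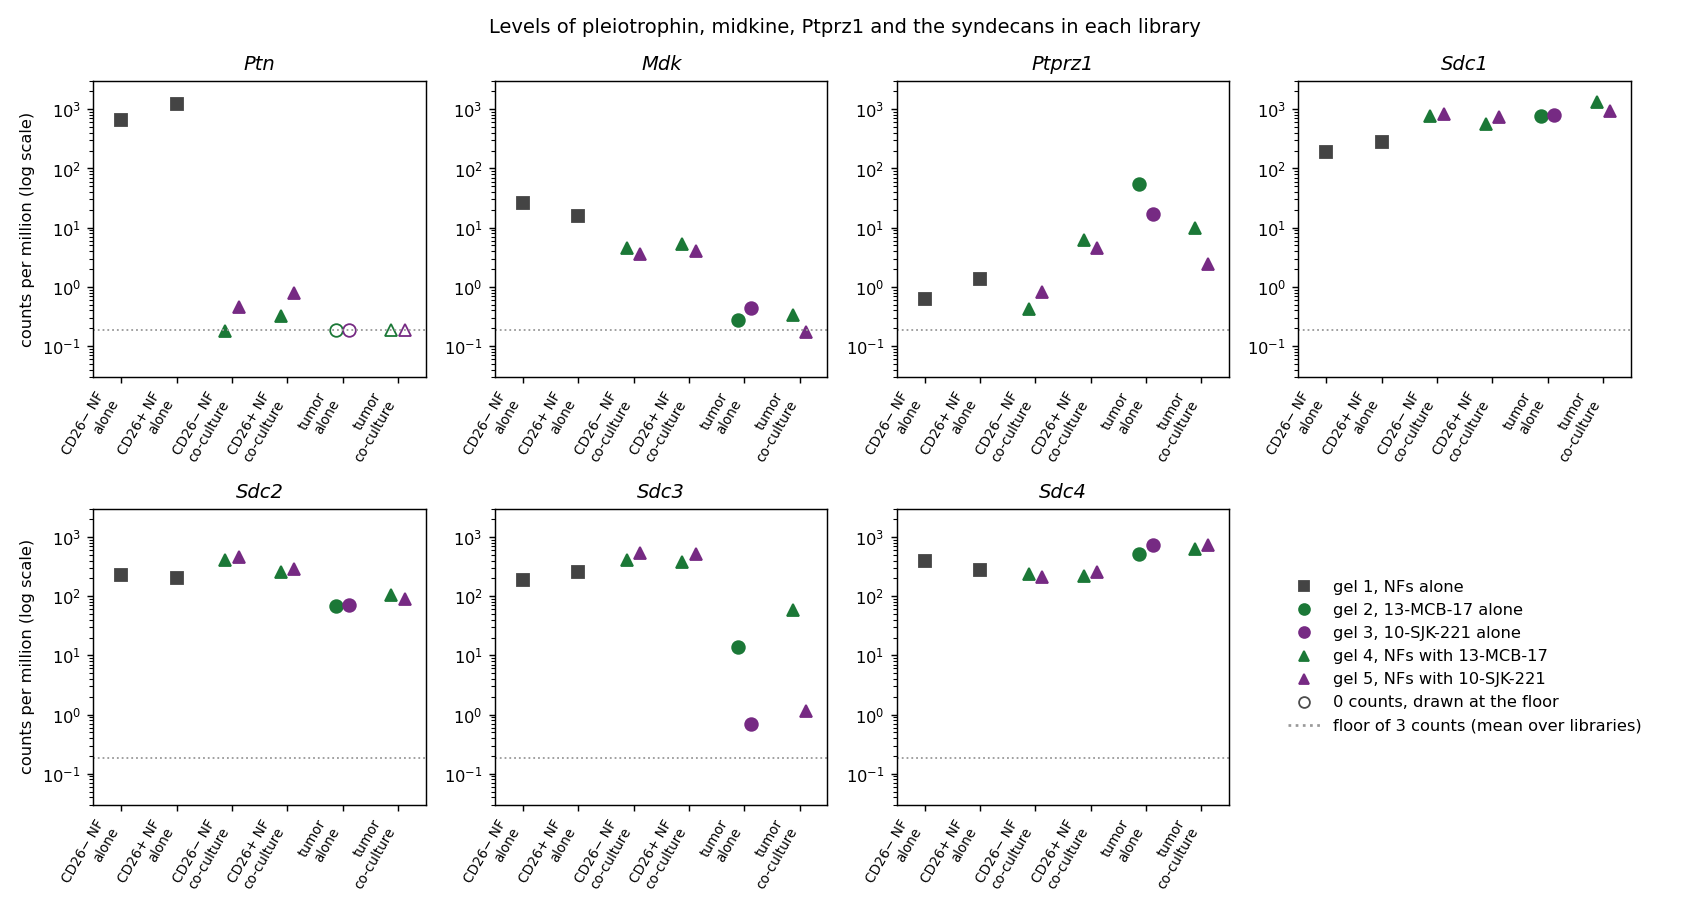
Levels of the 7 genes in all 10 libraries, in CPM on a log axis, by group on the x axis; color marks the tumor line, the symbol marks the gel, open symbols are libraries with 0 counts drawn at the floor. Ptn sits at 652 and 1238 CPM in NFs alone and under 1 CPM in every other library, and Sdc3 separates the tumor lines.

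Of the ligands, Ptn was among the highest genes of NFs alone and was nearly absent from NFs that had shared a gel with tumor cells. In gel 1 its level was 652 CPM in the CD26− and 1238 CPM in the CD26+ subset, where 99.2% and 99.6% of detected genes had a lower level per length. In co-cultured CD26− NFs it had 0.182 CPM (gel 4) and 0.460 CPM (gel 5), and in co-cultured CD26+ NFs 0.321 and 0.778 CPM. These are 3, 8, 5 and 11 counts against 10496 and 17639 counts in gel 1, so the groups did not overlap. Within CD26− NFs the level in gel 1 was 3585 times that in gel 4 (95% interval 1226.5 to 17388) and 1416 times that in gel 5 (718 to 3280). Within CD26+ NFs it was 3855 (1651 to 11873) and 1592 times (889 to 3189) the level in gels 4 and 5. The intervals, here and below, are exact, set single libraries against each other and cover only the error of counting. They hold no spread between gels and treat every read as independent, although the reads carried no molecular identifiers. The fitted log2 fold change of co-culture against NFs alone was −11.01 (SE 0.25). Ptn had 0 counts in all 4 tumor libraries, so NFs alone exceeded tumor cells alone at least 5341-fold, and co-cultured NFs exceeded co-cultured tumor cells at least 2.55-fold, against a floor of 3 counts per library.

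Mdk was lower in co-cultured NFs as well, by a smaller factor. It had 26.5 CPM (CD26−) and 16.0 CPM (CD26+) in NFs alone. Co-cultured CD26− NFs had 4.61 and 3.63 CPM in gels 4 and 5, and co-cultured CD26+ NFs had 5.27 and 4.10 CPM. All 4 co-cultured libraries lay below both libraries of NFs alone, with a mean of 4.40 ± 0.703 CPM (SD, n = 4) against 21.3 CPM. The fitted log2 fold change was −2.21 (SE 0.23), a 4.61-fold lower level. Mdk was close to the floor in tumor cells, with 5 counts (0.272 CPM) in 13-MCB-17 and 7 counts (0.445 CPM) in 10-SJK-221 alone, and 6 and 3 counts (0.339 and 0.171 CPM) beside NFs. Per kilobase of exon, Ptn exceeded Mdk in NFs alone (190 and 361 against 20.03 and 12.09 CPM per kb), while in co-cultured NFs Mdk exceeded Ptn (2.74 to 3.98 against 0.0530 to 0.227 CPM per kb).

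Ptprz1, the receptor of pleiotrophin, was mainly a transcript of tumor cells grown alone, and among NFs it was highest in co-cultured CD26+ cells. It had 54.3 CPM in 13-MCB-17 and 16.9 CPM in 10-SJK-221 cells alone, and 9.90 and 2.40 CPM in the same lines in co-culture. The level was thus 5.49-fold and 7.06-fold lower in co-culture, and the fitted log2 fold change was −2.62 (SE 0.17). The CD26+ subset had 1.33 CPM of Ptprz1 alone, 6.10 CPM beside 13-MCB-17 and 4.60 CPM beside 10-SJK-221 (19, 95 and 65 counts). The CD26− subset had 0.621, 0.424 and 0.806 CPM in the same order (10, 7 and 14 counts). Co-cultured CD26+ NFs thus lay above all other NF libraries, and the CD26− libraries of gels 4 and 5 lay on either side of that of gel 1. The ratio of CD26+ to CD26− NFs was 2.15 in gel 1 (95% interval 0.95013 to 5.17), 14.4 in gel 4 (6.72 to 36.8) and 5.70 in gel 5 (3.17 to 11.008). Over the 3 gels the fitted log2 fold change was 2.37 (SE 0.49). Without the gel 1 library of CD26− or CD26+ NFs the fitted difference between co-culture and NFs alone, 1.24 (SE 0.55), became 2.03 or 0.05.

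The level of Ptprz1 in co-cultured CD26+ NFs was 61.7% (gel 4) and 192% (gel 5) of that in tumor cells of the same gel, where epithelial markers stood at 4.10% and 6.52%. In co-cultured CD26− NFs it was 4.29% and 33.6%, with epithelial markers at 2.75% and 2.86%. The gel 4 value of CD26− NFs is thus near the summed marker share, and the other 3 exceed it. Single markers spread around that share. In CD26+ NFs and tumor cells of gel 5, Krt19 had 89.8 and 507 CPM and Cldn7 had 0.778 and 27.8 CPM. The CD26− value of gel 5 rests on 14 counts, beside 10 counts in gel 1. The part of tumor cell material in these levels was not tested.

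Of the syndecans, Sdc1, Sdc2 and Sdc3 were higher and Sdc4 lower in co-cultured NFs than in NFs alone. Sdc1 had 190 CPM (CD26−) and 282 CPM (CD26+) in NFs alone. Beside 13-MCB-17 it reached 758 CPM (CD26−) and 556 CPM (CD26+), and beside 10-SJK-221 it reached 821 and 737 CPM. The fitted log2 fold change was 1.65 (SE 0.23), a 3.15-fold higher level, and the groups did not overlap. The level in co-cultured NFs was 41.4% to 87.9% of that in tumor cells of the same gel, above the epithelial marker shares of 2.75% to 6.52%. In tumor cells Sdc1 was at 763 and 806 CPM alone and at 1343 and 933 CPM in co-culture, with a fitted log2 fold change of 0.49 (SE 0.16).

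Sdc2 stood at 225 CPM (CD26−) and 199 CPM (CD26+) in gel 1. Co-cultured CD26− NFs had 401 and 455 CPM and co-cultured CD26+ NFs had 258 and 292 CPM, with a fitted log2 fold change of 0.74 (SE 0.17). The CD26− libraries were above the CD26+ libraries in every gel, by 1.13, 1.55 and 1.56 times in gels 1, 4 and 5. Tumor cells had 68.8 and 69.7 CPM alone and 103 and 89.3 CPM in co-culture, below every NF library.

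Sdc3 stood at 190 CPM (CD26−) and 258 CPM (CD26+) in gel 1, at 413 and 384 CPM in gel 4 and at 530 and 523 CPM in gel 5. The fitted log2 fold change was 1.11 (SE 0.21), a 2.15-fold higher level in co-culture, and the subsets differed by −0.05 (SE 0.19). Sdc4, in contrast, stood at 393 CPM (CD26−) and 273 CPM (CD26+) in gel 1, at 241 and 219 CPM in gel 4 and at 213 and 260 CPM in gel 5. Its fitted log2 fold change was −0.46 (SE 0.16), and it became −0.16 without CD26− NFs alone. The highest co-cultured library, at 260 CPM, was close to CD26+ NFs alone at 273 CPM. Sdc4 in tumor cells had 509 and 723 CPM alone and 637 and 723 CPM in co-culture, above every NF library.

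The make-up of the syndecans shifted accordingly when levels were set per kilobase of exon. Sdc4 made up 51.5% (CD26−) and 38.2% (CD26+) of the summed syndecan level in NFs alone and 16.2% to 23.3% in co-cultured NFs. Sdc1 made up 16.6% and 26.3% in NFs alone and 39.6% to 41.8% in co-cultured NFs, where it was the leading syndecan in all 4 libraries. The shares of Sdc2 (20.1% and 21.3% alone, 17.8% to 25.0% in co-culture) and Sdc3 (10.6% and 15.3% alone, 14.5% to 18.8% in co-culture) moved less. The summed level was 300 and 281 CPM per kb in NFs alone and 369 to 516 in co-cultured NFs. In tumor cells Sdc1 and Sdc4 together made up most of the sum, Sdc1 with 41.1% to 54.9% and Sdc4 with 39.0% to 55.1%, while Sdc2 made up 3.84% to 4.62%.

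**Figure D2:**
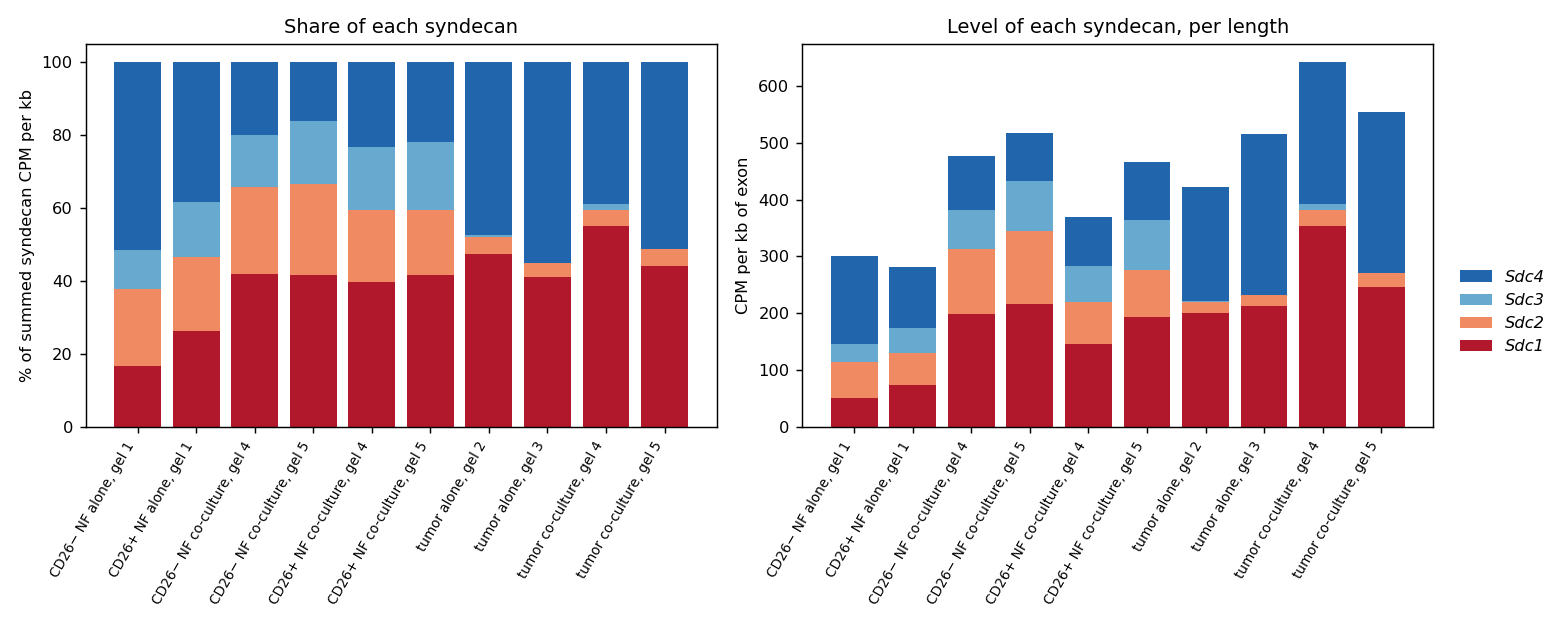
Share of each syndecan in the summed syndecan level (left, percent) and the level of each (right, CPM per kilobase of exon), stacked, for each library on the x axis. Sdc4 is the largest part in NFs alone, at 51.5% and 38.2%, and Sdc1 is the largest part in the co-cultured NFs, at 39.6% to 41.8%.

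The values by cell type can be set in order. Per kilobase, Sdc4 was the highest member but Ptn in NFs alone, and Sdc1 the highest in co-cultured NFs. In tumor cells Sdc4 and Sdc1 were highest in every library, and their order differed between libraries (200 and 200 CPM per kb in 13-MCB-17 alone, 284 and 212 in 10-SJK-221 alone, 250 and 353, and 284 and 245 in co-culture, Sdc4 named first). Against tumor cells, NFs alone had log2 fold changes of 5.96 (SE 0.39) for Mdk, 1.74 (SE 0.17) for Sdc2, −1.63 (SE 0.24) for Sdc1, −0.77 (SE 0.20) for Sdc4 and −5.17 (SE 0.87) for Ptprz1. In shared gels these were 4.25 (SE 0.38), 2.03 (SE 0.16), −0.47 (SE 0.20), −1.34 (SE 0.16) and −1.56 (SE 0.65). Sdc3 was higher in NFs by 5.01 (SE 1.57) alone and 4.14 (SE 1.42) in shared gels, with wide errors and with levels that differed between the tumor lines. Without the 13-MCB-17 library of tumor cells alone (gel 2) or in co-culture (gel 4) these 2 values became 8.46 and 8.87, and without the 10-SJK-221 library (gel 3 or gel 5) 4.09 and 3.16. Ptprz1 became −4.04 alone without the 13-MCB-17 library of gel 2 and −5.79 without the 10-SJK-221 library of gel 3. In shared gels it became −0.18 without the 13-MCB-17 library of gel 4 and −2.25 without the 10-SJK-221 library of gel 5.

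Members past an adjusted p of 0.05 (edgeR's quasi-likelihood test, Benjamini-Hochberg adjustment over all genes) are given as counts only for the contrasts the choice used. For co-culture against NFs alone, 3 of 7 were past it in the higher and 3 in the lower direction, where 25.9% and 22.9% of all 15013 genes tested were. For CD26+ against CD26− NFs it was 1 of 7 in either direction (3.93% and 3.6% of all genes). For the interaction of subset and culture it was 0 of 7 with edgeR and with DESeq2, and 3 of 7 had an unadjusted p under 0.05, where 7.79% of all 16231 genes did (0.228% were called higher and 0.148% lower after adjustment). For tumor cells in co-culture against alone, 2 of the 5 members that passed the filter were past the threshold in the higher and 1 in the lower direction (10.8% and 11.5% of 13197 genes). For NFs against tumor cells it was 4 higher and 3 lower of 7 alone (28.4% and 27.1% of 17048 genes) and 4 and 1 in shared gels (27.7% and 24.2%). With DESeq2, 3 of 7 members passed between subsets (1676 genes in all) and 6 of 7 between cell types in shared gels (7845 genes). The other contrasts that the choice used gave the same numbers of members with DESeq2. Ptn and Mdk did not pass the filter on low counts in tumor cells, and Ptn did not pass it in co-cultured NFs by themselves. The fits over all NFs and over all 10 libraries held the gel 1 libraries, where Ptn was high, and there it passed the filter. In shared gels it was among the 4 higher members, on 3 to 11 counts per NF library against 0 in tumor cells. Nothing is read from its place in any of these counts.

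The tumor lines were compared over both cultures, a contrast that the choice of genes did not use. Sdc3 and Ptprz1 were lower in 10-SJK-221 than in 13-MCB-17 cells. Sdc3 had 13.9 CPM alone and 58.8 CPM in co-culture in 13-MCB-17 and 0.700 and 1.14 CPM in 10-SJK-221 (256, 1040, 11 and 20 counts). The log2 fold change was −5.28 (SE 0.29, adjusted p = 3.77e-05, edgeR), a 38.8-fold lower level over both cultures. The CPM ratio was 19.9 alone and 51.6 in co-culture. It lay between −5.74 and −4.39 when a library was left out, with −4.39 without the co-cultured library of 13-MCB-17 or of 10-SJK-221. Ptprz1 was 3.72-fold lower (log2 fold change −1.89, SE 0.17, adjusted p = 0.000329), by 3.21 times alone and 4.13 times in co-culture. Sdc1 (−0.30, SE 0.16, adjusted p = 0.258), Sdc2 (−0.17, SE 0.10, adjusted p = 0.315) and Sdc4 (0.27, SE 0.13, adjusted p = 0.201) stayed above 0.05. Of all genes, 5.93% were called higher and 8.54% lower in 10-SJK-221. The fit used 4 libraries with 1 residual degree of freedom.

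Within each tumor line, a single co-cultured library was set against a single library grown alone. The Sdc3 level was 4.23-fold higher in co-culture in 13-MCB-17 (95% interval 3.69 to 4.87) and 1.63-fold in 10-SJK-221 (0.745 to 3.77). These intervals cover only the error of counting and hold no spread between gels. Whether the lines differ in this change was not tested. The fitted log2 fold change of 1.83 (SE 0.26) became 0.69 without either 13-MCB-17 library. In 13-MCB-17 of gel 4 Sdc3 was at 14.75% of the NF mean of the same gel, where fibroblast markers were at 0.578%. In 10-SJK-221 of gel 5 it was at 0.217%, with fibroblast markers at 0.301%. Of the summed fibroblast markers in 10-SJK-221 of gel 5, 107 CPM, Pdgfra made up 43.5 CPM, and it was at 67.7 and 35.6 CPM in tumor cells alone. The gel 4 level of Sdc3 exceeded the marker share, and the part of NF material in the gel 5 level was not tested.

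**Figure D3:**
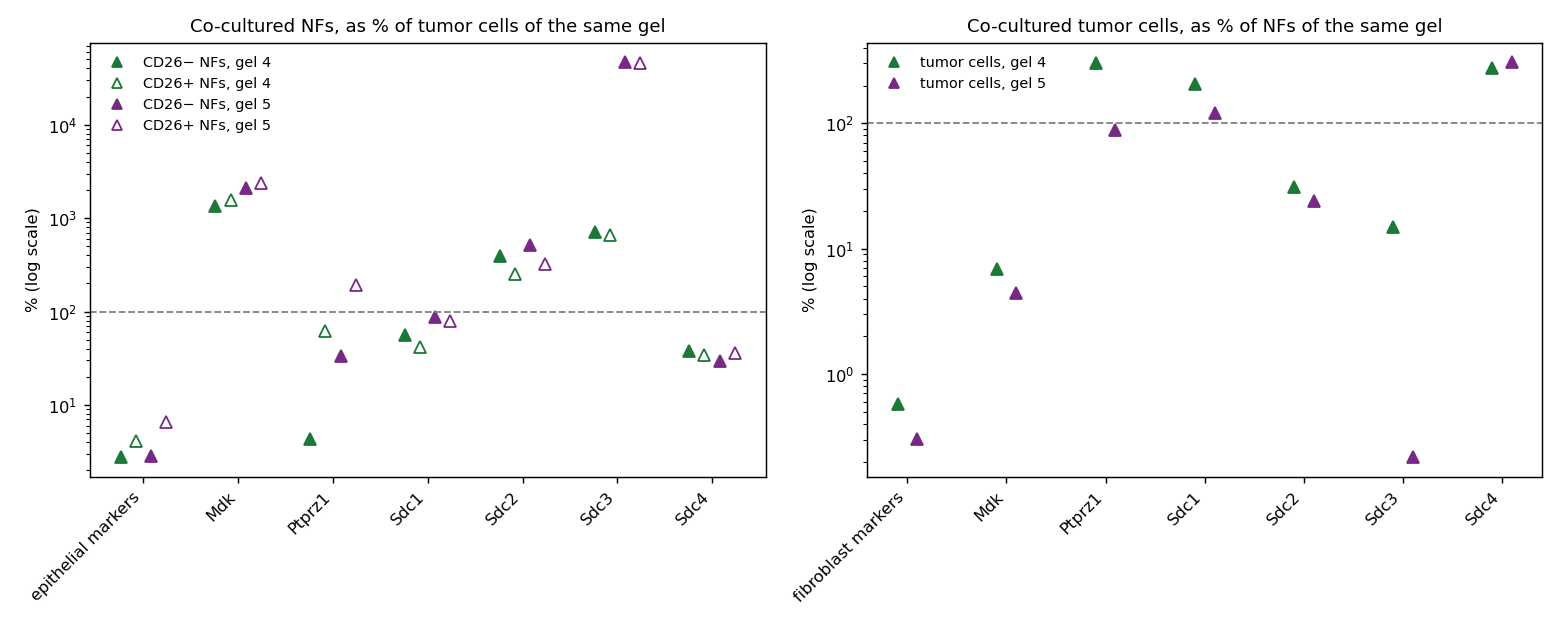
Level of each member and of summed marker genes in co-cultured NFs as a percentage of tumor cells of the same gel (left), and in co-cultured tumor cells as a percentage of the mean of both NF libraries of the same gel (right), on log axes; the dashed line marks 100%. Epithelial markers lie at 2.75% to 6.52% on the left and Sdc1 at 41.4% to 87.9%; Ptn, at 0 in tumor cells, is left out.

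NFs grown beside 10-SJK-221 were compared with those beside 13-MCB-17 over both subsets, again a contrast outside the choice. None of the 6 members tested passed the threshold with edgeR or with DESeq2, and 1 had an unadjusted p under 0.05, where 11.7% of all 14410 genes did (1.25% were called higher and 0.861% lower beside 10-SJK-221 after adjustment). That member was Sdc3, with a log2 fold change of 0.46 (SE 0.17, adjusted p = 0.157). It was higher beside 10-SJK-221 in both subsets, and the adjusted p lay between 0.143 and 0.546 over the alternative settings. Sdc1 differed by 0.32 (SE 0.17), Sdc2 by 0.24 (SE 0.17), Sdc4 by 0.09 (SE 0.17), Mdk by −0.29 (SE 0.30) and Ptprz1 by −0.01 (SE 0.42), with adjusted p-values of 0.471 to 0.996. For Ptprz1 the subsets went opposite ways, from 0.424 CPM in gel 4 to 0.806 CPM in gel 5 in CD26− NFs and from 6.10 to 4.60 CPM in CD26+ NFs. Its value became −0.37 without either CD26− library and 0.98 without either CD26+ library. Ptn was not fitted. Its 19 counts in the co-cultured NFs of gel 5 against 8 in gel 4 were higher in gel 5 in both subsets.

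**Figure D4:**
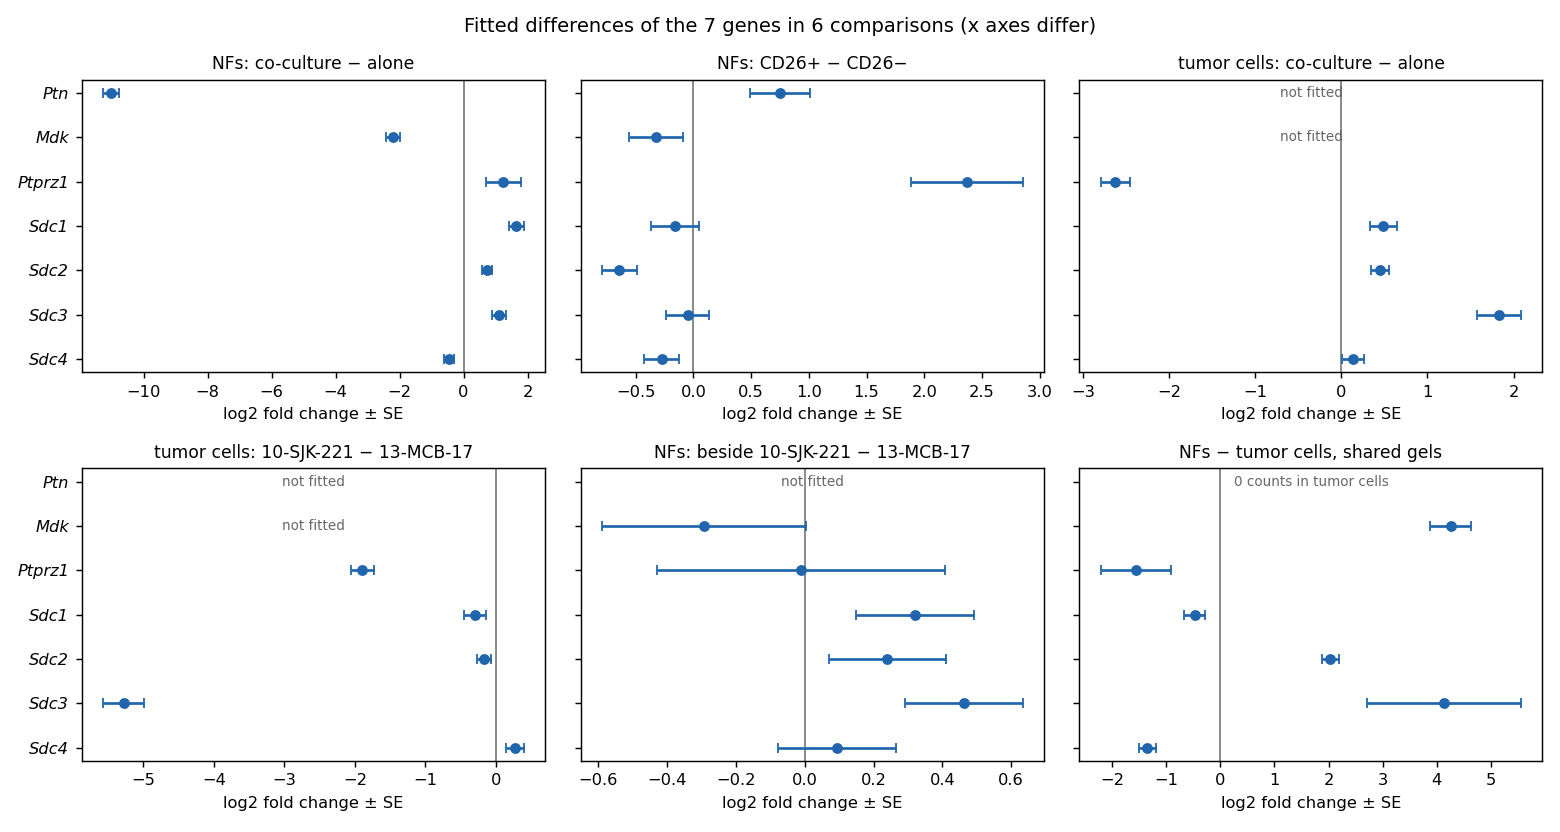
Fitted log2 fold change of each member with its SE (bars) in 6 comparisons, one panel each, with its own x axis. In NFs, Ptn (−11.01) and Mdk (−2.21) lie far below 0 with co-culture and Sdc1, Sdc2 and Sdc3 above it; between tumor lines only Sdc3 (−5.28) and Ptprz1 (−1.89) passed the test.

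Genes of the same biology were taken from a list of 104 genes in 9 roles. The list was put together with earlier results of these data known, so its counts and p-values are no independent evidence. In co-cultured NFs, 63 of the 91 genes tested differed from NFs alone, 31 higher and 32 lower, against 25.9% and 22.9% of all genes. The median log2 fold change of the list was 0.06 and that of all genes 0.02. Of 15 receptors and partners of the ligands, 8 were higher and 2 lower. Integrin beta 3 (Itgb3), a partner of integrin alpha v, stood at 13.5 and 13.2 CPM in gel 1 and between 332 and 521 CPM in co-culture (log2 fold change 5.04, SE 0.20, adjusted p = 2.00e-07). Integrin alpha 6 (Itga6), a laminin receptor subunit, was higher by 4.66 (SE 0.27), while the coreceptors Lrp6 and Nrp1 were lower by −0.97 (SE 0.15) and −0.69 (SE 0.20). Itga6 had 41.9 to 66.0 CPM in co-cultured NFs beside 322 and 424 CPM in tumor cells of gels 4 and 5, and the part of tumor cell material in its level was not tested. Lrp1, the highest receptor of the list in NFs at 3870 to 5150 CPM, differed by 0.23 (SE 0.17, adjusted p = 0.296), and nucleolin (Ncl) by −0.06 (SE 0.13, adjusted p = 0.747). Alk was at or below 0.842 CPM in every library, and its difference gave an adjusted p of 0.496.

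Among proteoglycans other than syndecans, 6 of 8 surface and 4 of 6 matrix genes tested differed in co-cultured NFs, beside 25.9% higher and 22.9% lower over all genes. Cspg4 (NG2, a chondroitin sulfate proteoglycan of pericytes and some fibroblasts) was higher by 4.62 (SE 0.51) and glypican-1 (Gpc1) by 1.60 (SE 0.17), although exons of another gene cover 18.9% of Gpc1. Glypican-3 (Gpc3) and betaglycan (Tgfbr3) were lower by −2.30 (SE 0.18) and −2.83 (SE 0.15). Versican (Vcan), a large chondroitin sulfate proteoglycan of the matrix to which pleiotrophin and midkine can bind, fell from 1821 and 1458 CPM in NFs alone to between 248 and 462 CPM (log2 fold change −2.29, SE 0.18). The basement membrane proteoglycans Col18a1 and Agrn were higher by 2.35 (SE 0.16) and 1.49 (SE 0.13), and serglycin (Srgn) was lower by −1.60 (SE 0.44). Each of these differences passed the threshold (largest adjusted p = 0.0139, edgeR).

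Of the enzymes that build and edit the chains, 4 of 6 for the linkage region, 15 of 19 for heparan sulfate and 10 of 14 for chondroitin and dermatan sulfate differed in co-cultured NFs, where 25.9% of all genes were higher and 22.9% lower. Sulf2, an extracellular sulfatase that removes 6-O-sulfates from heparan sulfate, was at 244 and 476 CPM in gel 1 and between 12.7 and 56.5 CPM in co-culture (log2 fold change −3.63, SE 0.21, adjusted p = 1.44e-06). Ndst3 and Extl1, enzymes of heparan sulfate assembly and sulfation, were higher by 2.30 (SE 0.30) and 2.28 (SE 0.43) from 3.65 CPM or less. Hs3st3a1 was lower by −1.48 (SE 0.52, adjusted p = 0.0379), with exons overlapped over 32.9% of their length. It lost its call with DESeq2 and with a filter of 1 CPM in 2 libraries. In the chondroitin group Chst11, a 4-O-sulfotransferase, was higher by 1.39 (SE 0.17), and the polymerizing enzyme Chsy1 and the initiating Csgalnact1 were lower by −1.51 (SE 0.13) and −1.29 (SE 0.17). Chpf2 was higher by 0.72 (SE 0.16), with overlapped exons over 44.1%. In the linkage group B4galt7 and Xylt2 were higher by 1.00 (SE 0.13) and 0.61 (SE 0.17), and B3galt6 was lower by −1.16 (SE 0.28).

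Of 8 syndecan sheddases and their inhibitor, 1 was higher and 3 lower in co-cultured NFs, where 25.9% of all genes were higher and 22.9% lower. The 1 was Mmp9, a gelatinase that can cleave syndecans, with 12.9 and 18.6 CPM in gel 1 and between 3880 and 6332 CPM in co-culture (log2 fold change 8.36, SE 0.26, adjusted p = 5.47e-08). In 13-MCB-17 cells Mmp9 had 200 CPM alone and 550 CPM in co-culture, and in 10-SJK-221 cells 106 and 263 CPM, below the co-cultured NFs of the same gels. Mmp16 and Adamts1 were lower in co-cultured NFs by −2.12 (SE 0.40) and −1.12 (SE 0.15). Of 9 cytoplasmic partners of syndecans, 3 were higher and 3 lower. Ezrin (Ezr), which links membrane proteins to actin, and Sdcbp2, a PDZ protein, were higher by 2.06 (SE 0.16) and 2.61 (SE 0.42), and Tiam1 and protein kinase C alpha (Prkca), which binds syndecan-4, were lower by −1.31 (SE 0.22) and −1.13 (SE 0.13). Of 6 substrates of Ptprz1, Add2 and Fyn were higher by 4.57 (SE 0.61) and 0.85 (SE 0.13) and Magi1 and Arhgap35 lower by −0.63 (SE 0.17) and −0.52 (SE 0.13), all past the threshold (largest adjusted p = 0.0114).

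**Figure D5:**
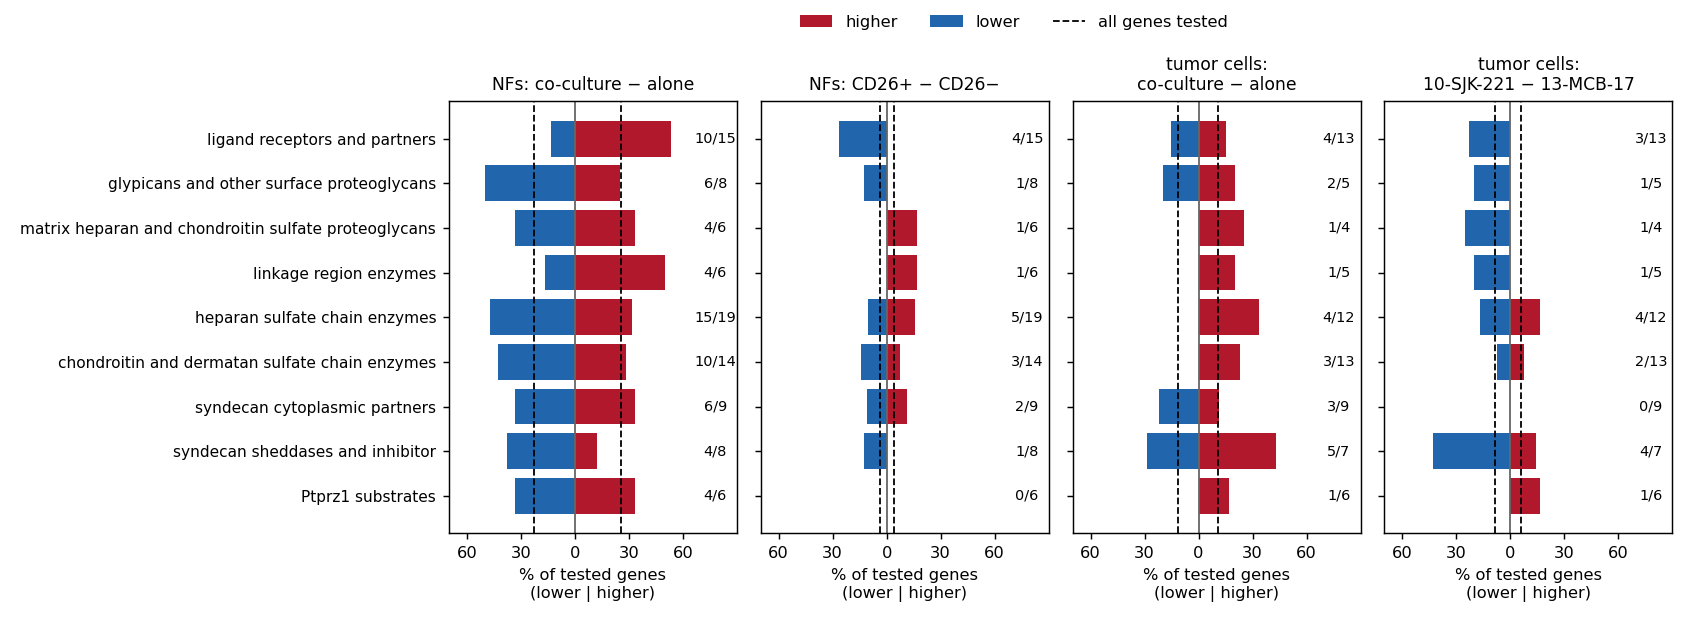
Percent of the tested genes of each role (rows) that passed an adjusted p of 0.05 in the lower (left) and higher (right) direction in 4 comparisons (panels); figures at the right of each panel give genes past the threshold over genes tested, and dashed lines give the share over all genes tested. Receptors and partners stand at 8 higher and 2 lower of 15 with co-culture in NFs.

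Between the NF subsets, 18 of 91 list genes passed the threshold, 7 with the higher and 11 with the lower level in the CD26+ subset, where 3.93% and 3.6% of all genes did, and the median log2 fold change was −0.16 against 0.00 for all genes. The inhibitor Timp3, which blocks syndecan shedding, had 316 CPM (CD26+) against 787 CPM (CD26−) in gel 1, 336 against 660 CPM in gel 4 and 295 against 734 CPM in gel 5 (log2 fold change −1.36, SE 0.13, adjusted p = 0.00125), with exons of another gene over 21.3% of its length. Ezr was higher in CD26+ NFs in every gel (1.12, SE 0.14, adjusted p = 0.00413), as were Hs3st1 (1.22, SE 0.18), Ndst3 (1.35, SE 0.25) and Col18a1 (0.84, SE 0.13). Nrp1 (−1.10, SE 0.20), Itgav (−0.71, SE 0.15), Cd44 (−0.77, SE 0.14), Chst11 (−0.65, SE 0.15), Hs6st2 (−0.75, SE 0.19), Prkca (−0.61, SE 0.13), Glce (−0.57, SE 0.13) and Dse (−0.54, SE 0.12) were lower. B4galt7 (0.67, SE 0.12) and Chpf (0.66, SE 0.14) were higher. Mmp9 (0.35, SE 0.16, adjusted p = 0.209), Lrp1 (−0.36, SE 0.16, adjusted p = 0.201), Ncl (−0.19, SE 0.13, adjusted p = 0.384) and Alk (1.68, SE 0.70, adjusted p = 0.176) stayed short of it. The count fell from 18 to 9, 4 and 5 without the co-cultured CD26− library of gel 4, that of gel 5 and the CD26+ library of gel 5, respectively, with Timp3 and Ezr among those that stayed. In the interaction of subset and culture 2 of 93 list genes passed, Cspg4 with −2.57 (SE 0.40, adjusted p = 0.0144) and the Ptprz1 substrate Add2 with −4.39 (SE 0.66, adjusted p = 0.0124). The reference for either subset was 1 library of gel 1, where Add2 had 3 counts in CD26− NFs, the floor. Both rose with co-culture by less in CD26+ NFs, and neither passed without the CD26+ library of gel 4 or that of gel 5.

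In tumor cells, 24 of 74 list genes differed with co-culture, 17 higher and 7 lower, where 10.8% and 11.5% of all genes did. Itgb3 was higher by 3.33 (SE 0.14, adjusted p = 1.56e-05), with 17.7 and 10.4 CPM alone and 158 and 126 CPM in co-culture, and Nrp1 by 1.59 (SE 0.21). Add2 (3.20, SE 0.14), Mmp2 (3.02, SE 0.23) and Mmp9 (1.36, SE 0.11) were higher, and Timp3 was lower by −2.40 (SE 0.19), from 107 and 69.8 CPM to 15.5 and 18.0 CPM. Mmp2, a fibroblast gelatinase, reached 42.3 CPM in tumor cells of gel 4 and 16.4 CPM in those of gel 5, beside 2308 to 3638 CPM in NFs of the same gels, and the part of NF material in this difference was not tested. Further genes higher in co-culture were Hs6st1 (1.30, SE 0.20), Chpf (1.18, SE 0.18), Chsy1 (0.94, SE 0.12), Xylt2 (0.89, SE 0.14), Ext1 (0.85, SE 0.10), Cttn (0.72, SE 0.12), Gpc6 (0.65, SE 0.13) and Vcan (0.54, SE 0.12). Tgfbr3 (−1.21, SE 0.33), Tiam1 (−1.18, SE 0.11), Itga6 (−0.92, SE 0.14), Sdcbp2 (−0.76, SE 0.17), Lrp8 (−0.73, SE 0.11) and Adam10 (−0.37, SE 0.10) were lower, with a largest adjusted p of 0.0388. Tgfbr3 was lower in 13-MCB-17 (28.5 to 10.4 CPM) and not in 10-SJK-221 (0.445 to 0.627 CPM), and it lost its call with RLE scaling. With DESeq2 Tgfbr3, Vcan, Sdcbp2 and Adam10 did not pass. Lrp1 (−0.38, SE 0.15, adjusted p = 0.116) and Ncl (−0.02, SE 0.12, adjusted p = 0.938) did not pass the threshold.

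Between the lines, 17 of 74 list genes differed, 5 higher and 12 lower in 10-SJK-221, against 5.93% and 8.54% of all genes. Vcan (−5.41, SE 0.13, adjusted p = 4.03e-07) and Tgfbr3 (−5.11, SE 0.38, adjusted p = 0.000136) were lower. The receptor phosphatase Ptprf (−2.61, SE 0.11), Hpse (−2.36, SE 0.42), Chst11 (−1.69, SE 0.22), Mmp14 (−1.58, SE 0.11), Mmp2 (−1.16, SE 0.22), Extl3 (−1.11, SE 0.12), Mmp9 (−1.07, SE 0.11), B4galt7 (−0.60, SE 0.13) and Itgb3 (−0.58, SE 0.13) were lower, and Csgalnact1 (1.76, SE 0.19), Ndst3 (1.44, SE 0.16), Hs3st1 (1.22, SE 0.20), Adamts1 (0.44, SE 0.12) and Arhgap35 (0.41, SE 0.11) were higher (largest adjusted p = 0.0434). For Mmp2 the levels were 3.97 CPM (13-MCB-17, gel 2) against 2.74 CPM (10-SJK-221, gel 3) alone and 42.3 CPM (gel 4) against 16.4 CPM (gel 5) in co-culture. Fibroblast markers were at 0.578% of the NF level in gel 4 and 0.301% in gel 5, and the part of NF material in this difference was not tested. B4galt7, Adamts1 and Arhgap35 did not pass with DESeq2, and the latter 2 also not with RLE scaling. In NFs beside either line, 1 of 90 list genes passed, Lrp8, a receptor of the low density lipoprotein family, lower beside 10-SJK-221 in both subsets (59.0 and 53.6 CPM in gel 4 against 29.5 and 27.4 CPM in gel 5, log2 fold change −0.92, SE 0.17, adjusted p = 5.03e-05). This p-value, like the others for NFs beside either line, holds no spread between gels.

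Between cell types, 75 of 94 list genes differed alone (48 higher and 27 lower in NFs) and 64 in shared gels (45 and 19), where 28.4% and 27.1% of all genes were called alone and 27.7% and 24.2% in shared gels. The linkage enzyme Xylt1, the sulfotransferases Hs6st2 and Chst15, Gpc3, Itga4 and Mmp16 had 0 counts in all 4 tumor libraries, and Xylt1 had 27.1 to 48.7 CPM in NFs. Sulf2 had at most 0.0570 CPM in tumor cells. Tumor cells had the higher levels of Itga6, Ezr, Agrn, Col18a1, Cd44, Adam10 and Magi1 in both settings. Mmp9 was lower in NFs than in tumor cells alone (−3.18, SE 0.44, adjusted p = 0.000425) and higher in shared gels (3.79, SE 0.42, adjusted p = 0.000133). Lrp1 was higher in NFs alone (0.90, SE 0.20) and in shared gels (1.501, SE 0.18), and Ncl was lower (−0.87, SE 0.16, and −0.92, SE 0.13).

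Finally, genes with the most similar pattern to each member over the 10 libraries were listed by Pearson's r of log2(CPM + 1) among 13471 genes of at least 1 CPM on average. These libraries share gels and cell types, so r is a description. The nearest to Ptn were Gm49257 (r = 0.999), Galnt9 (0.998) and Limch1 (0.998), with levels that reached at most 62.3 CPM in any library. The nearest to Mdk were Abi3bp (0.995), Slc8a1 (0.994) and S1pr1 (0.993). Ptprz1 was nearest to Prl2c5 (0.971), Mir100hg (0.969) and Ccdc9 (0.962), and Sdc1 to Parp6 (0.982), Ccng2 (0.980) and Gm15728 (0.975). Sdc2 was nearest to Lrrc15 (0.985), Timp1 (0.984) and Adcy6 (0.983), Sdc3 to Tmcc2 (0.989), Dad1 (0.985) and Hyi (0.983), and Sdc4 to Kif15 (0.993), Ssrp1 (0.993) and Rad54l (0.990). Among the members themselves the highest r was that of Sdc2 with Sdc3 (0.894), and the lowest were those of Sdc4 with Sdc2 (−0.915) and of Ptn with Sdc1 (−0.912).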

How the data were processed

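RNA from sorted NFs and tumor cells was sequenced with a stranded mRNA kit, giving 10 libraries in 6 groups from 5 gels. The authors deposited raw read counts per gene, from reads aligned with HISAT2 2.2.1 to GRCm38 according to the submitters' processing notes. Which program counted the reads, whether it used strand and which annotation it read are not given in the sources used here. One row had no gene identifier and no reads and was left out. Of the gene identifiers, 99.38% matched GENCODE, and gene positions and exon lengths were taken from there. Groups follow the sample labels. A further allele of the tumor genotype is not reported here.

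Counts were fitted with edgeR 4.0.16 (quasi-likelihood test, TMM scaling, low-count filter) in R 4.3.3, with Benjamini-Hochberg adjustment over all genes of a fit and a threshold of 0.05. CPM, intervals and shares were computed with Python 3.11.15, numpy 2.4.6 and pandas 2.3.3, and plots were drawn with matplotlib 3.10.9. The SE of a log2 fold change is its size divided by the square root of the F statistic. The fits were run on simulated data, where 95 to 100% of genes changed by 2 on the log2 scale were recovered. The simulation drew independent libraries with the same spread for every gene, no gel effect and changes only in well-counted genes. It thus checks the fitting and does not give the share recovered in these libraries or at low counts. The members and the lists were chosen with earlier results of these data known. Members carry no p-value in the comparisons of subset, culture and cell type. Named list genes are, in each comparison and role, the 2 highest and the 2 lowest log2 fold changes past the threshold with a mean of at least 1 CPM, and Alk, Lrp1, Ncl and Mmp9 in any case. The p-values measure the spread between sorted libraries, which may be technical in part, and those for NFs beside either line hold no spread between gels. Those that involve NFs alone hold no spread between gels of NFs alone, as both of these libraries came from gel 1. The 2 libraries of a group came from different gels, and none was a repeat deposit of the other.

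Libraries of the same gel shared a culture by their labels. Over 13490 genes the difference between gels 4 and 5 correlated between the NF subsets with r = 0.264, and between tumor cells and CD26− or CD26+ NFs with r = 0.190 and 0.0993. The gel as a replicate block was one alternative. The others were RLE scaling, no or another low-count filter, DESeq2 1.42.0, the added criterion of an absolute log2 fold change above 2, TMM-scaled levels and leaving out each library in turn. Promoter sequences came from RefSeq (GRCm38.p6).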

Additional observations from a re-analysis of the deposited data

Results flagged for a closer look

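The difference between the NF subsets changed with culture for 2 genes of the list by the interaction test (edgeR). Cspg4 had 2.48 CPM (CD26−) and 5.97 CPM (CD26+) in gel 1, 148 and 59.7 CPM in gel 4 and 175 and 72.8 CPM in gel 5, a log2 difference of −2.57. Add2, a substrate of Ptprz1, had 0.186 and 2.53 CPM in gel 1, 33.4 and 23.0 CPM in gel 4 and 42.1 and 25.0 CPM in gel 5, a log2 difference of −4.39. The 2 libraries of NFs alone came from 1 gel, Add2 had 3 counts in the CD26− one, and with no low-count filter neither gene passed.

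In 6 further cases every ratio pointed one way in one setting and the other way in the other. Those between tumor lines were not tested, and those between NF subsets are the interaction, in which no member passed. The log2 ratio of CD26+ to CD26− NFs was −0.73 alone and 0.19 and 0.18 in gels 4 and 5 for Mdk, a change of 0.914. It was 0.57 and then −0.45 and −0.15 for Sdc1, a change of −0.873, and 0.44 and then −0.11 and −0.018 for Sdc3, a change of −0.498. Co-culture against alone gave a log2 ratio of 0.32 in 13-MCB-17 and −1.38 in 10-SJK-221 for Mdk, a difference of −1.70, but these rest on 3 to 7 counts per library. For Sdc4 the ratios were 0.32 and −0.00057, the latter close to no difference (723 CPM in both libraries), a difference of −0.325, and for Tgfbr3 they were −1.45 and 0.49, a difference of 1.95. In the fitted interaction of the NFs none of the 7 members passed after adjustment with edgeR or DESeq2, and 3 had an unadjusted p under 0.05, where 7.79% of all genes did.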

How the results depend on the processing

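No list gene past the threshold both in the reported fit and in an alternative with a test changed sign between them. With an absolute log2 fold change above 2 required as well, the number fell to 0 between NF subsets, 19 with co-culture in NFs, 4 with co-culture in tumor cells, 4 between tumor lines, 0 in NFs beside either line, 43 between cell types alone and 33 in shared gels, because this criterion removes smaller changes. With the gel as a replicate block, the interaction gave 4 list genes in place of 2, the subsets 20 in place of 18 and cell types in shared gels 66 in place of 64. With no low-count filter the interaction gave 0, and the cause was not tested. Leaving out 1 library gave 4 to 18 list genes between subsets, 0 to 2 in the interaction, 52 to 61 with co-culture in NFs, 64 to 75 between cell types alone and 53 to 65 in shared gels. DESeq2 gave 18 list genes in place of 24 with co-culture in tumor cells and 15 in place of 17 between tumor lines. In the fits of tumor cells and of NFs beside either line, a left-out library leaves no residual degree of freedom, so only values without a test were had, and the interaction could not be estimated without a library of NFs alone. Mdk between subsets lay between −0.50 and 0.016 on the log2 scale over left-out libraries, with 0.016 and 0.0084 without the CD26− or CD26+ library of NFs alone. Sdc4 with co-culture in tumor cells lay between −0.014 and 0.28, with −0.014 and −0.011 without a 13-MCB-17 library. Ptprz1 in NFs beside 10-SJK-221 was 0.17 with DESeq2 and −0.37 to 0.98 over left-out libraries. Few counts limit Ptn in co-cultured NFs, Add2 in CD26− NFs alone, Mdk in tumor cells, Ptprz1 in CD26− NFs and Sdc3 in 10-SJK-221.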
